A study of Mus musculus with 16 samples.

Results

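The 10 genes described here act in the export, carriage and conversion of cholesterol and other lipids in the brain, or in the control of these steps. They are the transporters *Abca1*, *Abcg1* and *Abcg4*, the liver X receptors *Nr1h2* and *Nr1h3*, the lipid carriers *Apoe*, *Apod* and *Clu*, and the enzymes *Cyp46a1* and *Lcat*. They were chosen by name, by matching the Ensembl identifiers of the table to these symbols, and all 10 were found among its 17074 genes. All 10 averaged at least 10 normalized counts over the libraries, the minimum for the tests, which 17042 genes reached.

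RNA-Seq libraries had been made from whole cerebellum of female C57BL/6 mice in 4 groups of 4 libraries each, 16 in all: *Acsl6-/-* mice aged 18 months, control mice aged 18 months, *Acsl6-/-* mice aged 2 months and control mice aged 2 months. They are called aged *Acsl6-/-*, aged control, young *Acsl6-/-* and young control below. The *Acsl6-/-* mice came from a floxed *Acsl6* line bred to CMV-Cre, so the gene was lost in the germline and in every tissue, and all groups ate a chow that held no DHA, the omega-3 fatty acid that ACSL6 activates for membrane phospholipids. The labels give natural aging as the treatment at 18 months. Nothing in them says that libraries came from separate mice, so the p values measure the spread between these libraries. The values are normalized counts, reads per gene divided by 1 size factor per library.

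Brain cholesterol is made within the brain, and little of it crosses the blood-brain barrier. Astrocytes load it through ABCA1 and ABCG1 onto particles that carry APOE and clusterin, LCAT esterifies it there, and neurons take the particles up through lipoprotein receptors. Neurons dispose of a surplus through CYP46A1, which makes 24S-hydroxycholesterol, a sterol that can leave the brain and that also binds the liver X receptors. These receptors pair with retinoid X receptors and switch on *Abca1*, *Abcg1* and *Apoe*.

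Sequence is shown for the 3 genes that rose with age together in *Acsl6-/-* mice by the largest folds, *Nr1h3*, *Abca1* and *Apoe*, as the 250 bases before the annotated start, 5′ to 3′ on the gene's strand, from RefSeq on GRCm38.p6. RefSeq windows of 300 bases around the start were at hand for 7 of the 10 genes, and none was matched for *Abcg1*, *Abcg4* and *Clu*. Capitals mark a repeat like those that liver X receptors bind, 2 copies of GGTNA with 5 bases between them, which reads on the opposite strand in *Abca1*, and a TATA box (TATAAA).
Abca1, chr4:53159896-53160145, minus strand: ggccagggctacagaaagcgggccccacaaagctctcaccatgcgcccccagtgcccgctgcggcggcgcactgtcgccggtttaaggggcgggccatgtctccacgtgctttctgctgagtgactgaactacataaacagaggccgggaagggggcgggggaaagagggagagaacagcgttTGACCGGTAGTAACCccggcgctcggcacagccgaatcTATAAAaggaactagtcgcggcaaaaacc
Apoe, chr7:19699189-19699438, minus strand: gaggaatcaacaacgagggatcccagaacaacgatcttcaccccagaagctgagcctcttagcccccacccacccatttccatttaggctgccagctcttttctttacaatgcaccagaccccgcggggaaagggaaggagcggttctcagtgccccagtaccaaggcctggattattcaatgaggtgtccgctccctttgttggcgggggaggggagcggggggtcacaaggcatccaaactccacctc
Nr1h3, chr2:91195117-91195366, minus strand: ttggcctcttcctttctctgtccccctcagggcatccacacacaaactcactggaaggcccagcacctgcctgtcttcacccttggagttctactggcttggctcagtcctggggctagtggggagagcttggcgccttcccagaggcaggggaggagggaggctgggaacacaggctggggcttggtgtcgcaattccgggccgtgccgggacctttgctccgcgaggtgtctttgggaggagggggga

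The repeat was found on either strand in 236 of 32851 RefSeq windows, which is 0.718%. Among the 10 windows of these genes it was found in that of *Abca1* alone, as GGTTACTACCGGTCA, ending 53 bases before the start. These letters were widened with the *Abca1* element in mind, and the strict form, 2 copies of AGGTCA with 4 bases between them, was in 5 of the 32851 windows (0.0152%) and in none of the 10. TATAAA stood in 13.6% of windows, in *Abca1* ending 24 bases before the start, and in 1 of the 3 windows listed for *Apoe*, a different one from that printed. The E-box CACGTG, found in 7.15% of windows, stood 142 bases before the *Abca1* start. The *Nr1h3* window lies 7718 bases from the outermost start in the Gencode annotation, at 1 of the 2 starts that RefSeq lists. A match describes letters in a window and is not evidence of binding.

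Between genes, levels are compared as normalized counts per kilobase of exon. *Apoe* was by far the most abundant of the 10, at 10030 ± 1349 per kilobase (SD, n = 16 libraries), followed by *Clu* at 2040 ± 426 and *Apod* at 1831 ± 178, whose ranges over the libraries overlapped. *Lcat* stood at 659 ± 71.6 and *Nr1h2* at 397 ± 19.4. *Abcg1* at 301 ± 27.1 and *Abcg4* at 295 ± 13.0 did not differ beyond their spread. *Cyp46a1* at 228 ± 18.3 and *Abca1* at 181 ± 19.6 also overlapped, and *Nr1h3* was lowest at 104 ± 17.1 per kilobase. *Clu* varied most across the libraries, with an SD of 20.9% of its mean, against 4.40% for *Abcg4*.

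**Figure D1:**
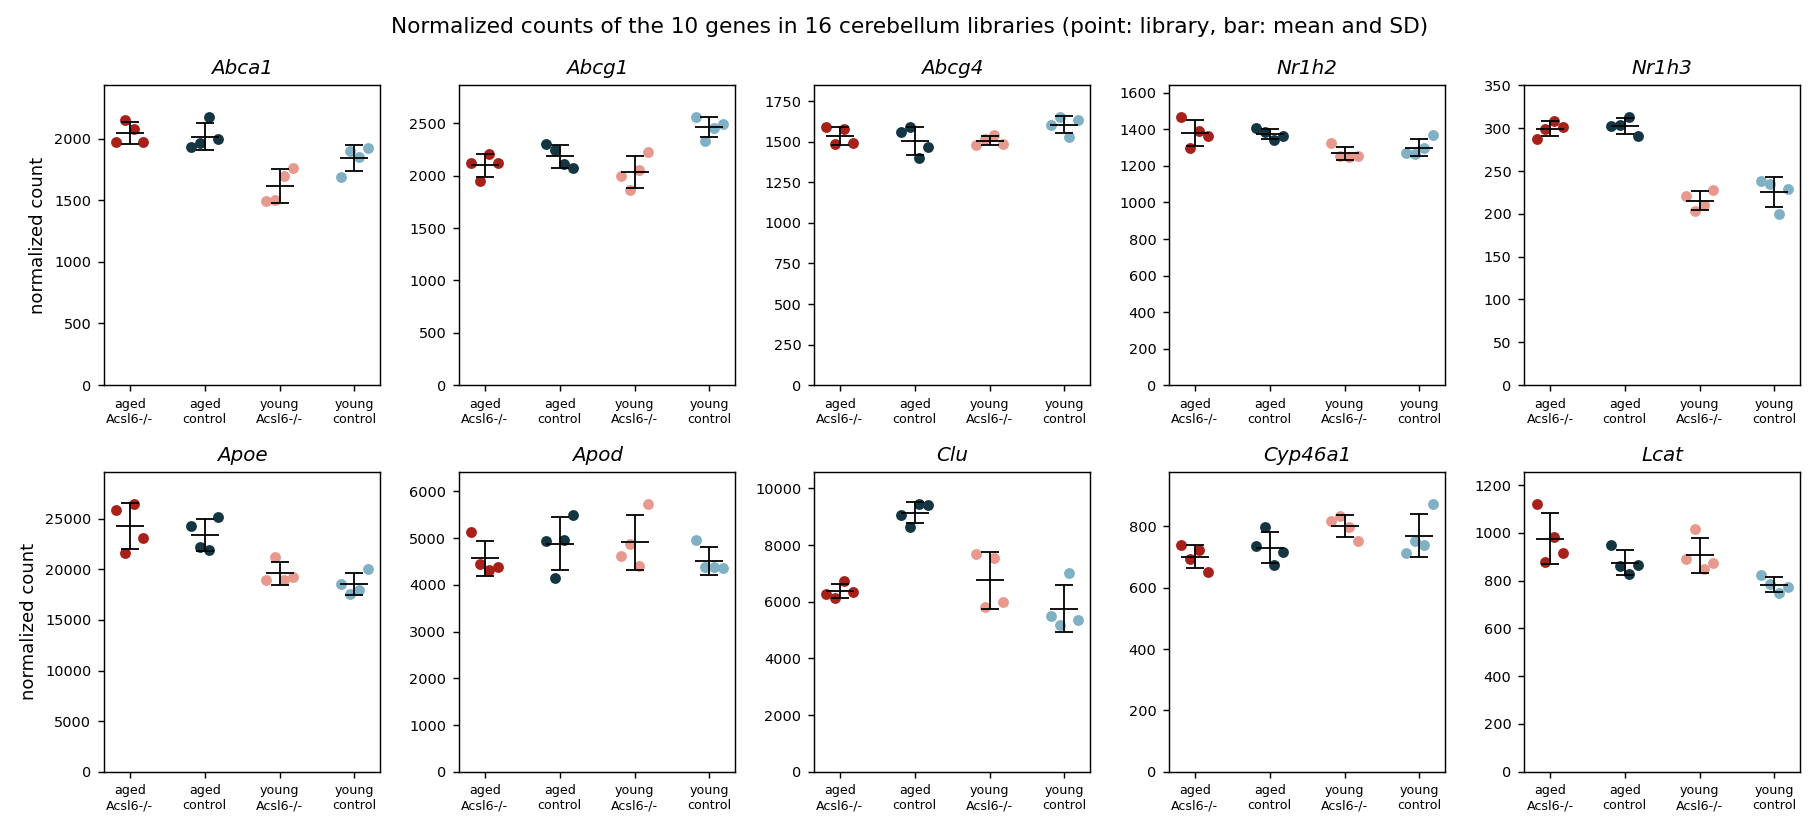
Normalized counts (y axes, from 0) of the 10 genes in each library, with 1 panel per gene and the groups aged *Acsl6-/-*, aged control, young *Acsl6-/-* and young control on the x axes. Points are libraries, and bars are the mean and SD of 4. *Clu* in the aged control libraries, at 8647 to 9458, stands above all other libraries, and *Nr1h3* and *Apoe* are higher in both aged groups.

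Recovered reads per library ranged from 16953548 to 27569428. *Acsl6* itself averaged 2178 ± 75.7 normalized counts in aged *Acsl6-/-* and 5970 ± 112 in aged control libraries, and 2293 ± 36.1 in young *Acsl6-/-* and 6753 ± 309 in young control libraries (SD, n = 4 each), so every library matched its genotype label. Libraries differed in choroid plexus RNA: *Ttr*, its leading marker, was above 5000 normalized counts in 5 libraries (aged *Acsl6-/-* 1, aged control 3 and 4, young control 1 and 4) and between 87.9 and 435 in the others. Aged control 3 also held 686717 normalized counts of the gene model *Gm42418*, and its 10 most abundant genes took 8.21% of counts, against 4.18% to 4.83% elsewhere. In bulk tissue, fewer cells of a type and less RNA per cell cannot be told apart.

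Differences were tested with limma on log2(normalized count + 1) over all 17042 genes, with p values adjusted over all of them and genes called at an adjusted p under 0.05. Fold changes are *Acsl6-/-* over control and aged over young. At 18 months 1 of the 10 genes was called, *Clu*, which was lower in *Acsl6-/-* mice, where 0.241% of all genes were called. At 2 months 1 of 10 was called, *Abcg1*, also lower, where 0.211% of all genes were called. With age in *Acsl6-/-* mice 5 of 10 were called, 4 higher and 1 lower, where 23.2% of all genes were called. With age in control mice 4 of 10 were called, 3 higher and 1 lower, where 31.3% of all genes were called. Against these shares the age counts are not read as particular to the 10 genes, and each genotype count is 1 gene. By genotype the median log2 fold change of the 10 was -0.0066 in aged and 0.014 in young mice, and by age it was 0.07 in *Acsl6-/-* and 0.12 in control mice, beside medians over all genes between -0.0016 and 0.0060.

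**Figure D2:**
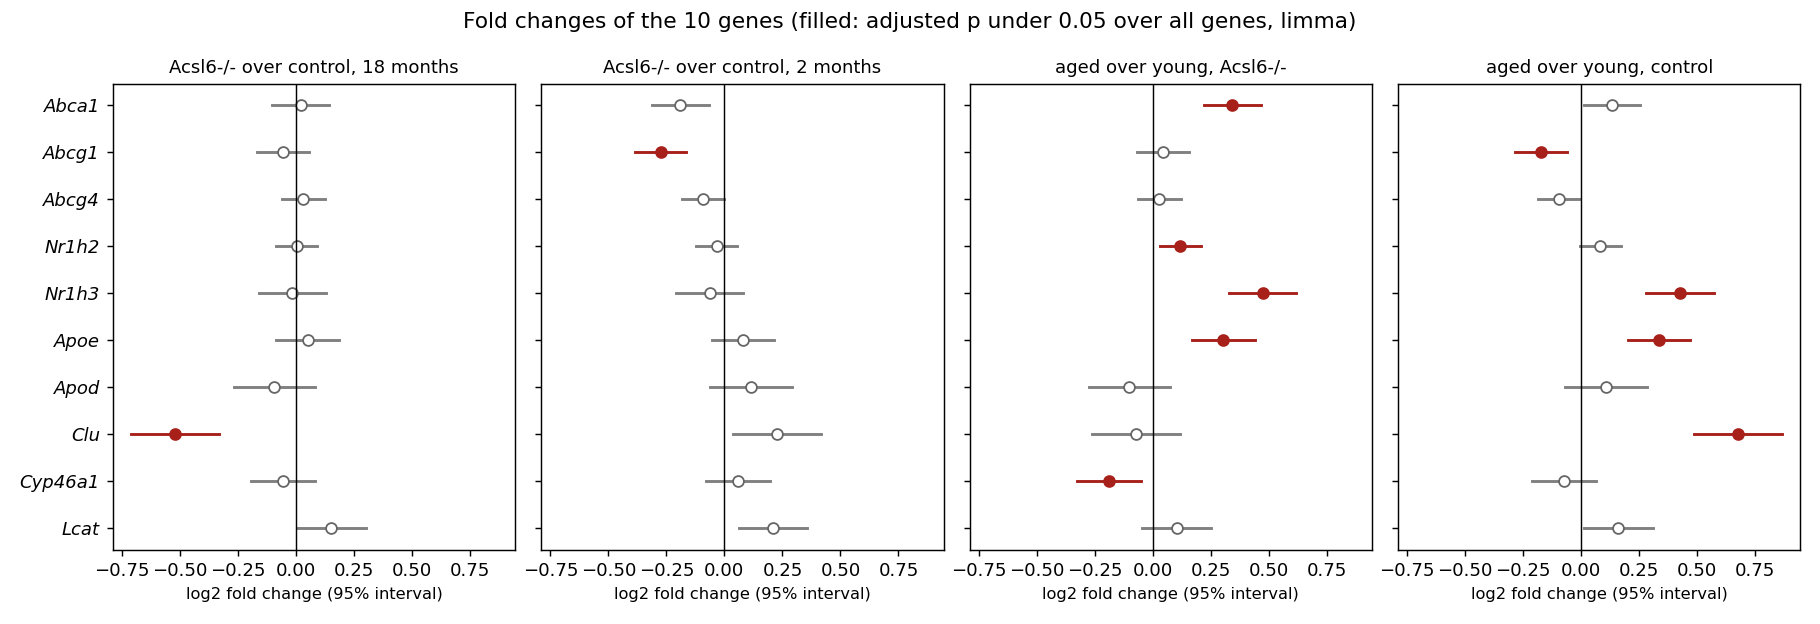
Log2 fold changes (x axes) with 95% intervals from limma for the 10 genes (rows) in 4 comparisons, from left to right *Acsl6-/-* over control at 18 months and at 2 months, and aged over young in *Acsl6-/-* and in control mice. Filled red points are called at an adjusted p under 0.05 over all genes. *Clu* is called lower by genotype at 18 months and higher by age in control mice, at -0.52 and 0.68.

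ABCA1, the transporter that hands cholesterol and phospholipid to lipid-poor apolipoproteins, is encoded by *Abca1* (ENSMUSG00000015243), at chromosome 4, 53030787 to 53159895, on the minus strand of GRCm38. It had 1973, 2155, 2078 and 1974 normalized counts in aged *Acsl6-/-* libraries, and 1930, 1964, 2175 and 1998 in aged control libraries. It had 1497, 1500, 1700 and 1762 in young *Acsl6-/-* libraries, and 1688, 1897, 1851 and 1925 in young control libraries. The young *Acsl6-/-* libraries had the lowest mean but overlapped the young control libraries, and the aged groups overlapped each other. With age *Abca1* rose in *Acsl6-/-* mice, with a log2 fold change of 0.34 (SE 0.058, adjusted p = 0.000347) and no overlap between ages. In control mice the fold change was 0.13 (95% interval 0.01 to 0.25, adjusted p = 0.0911), and it did not pass. The ages of control mice did not overlap either, but by a narrow gap. The highest young control library had 1925 and the lowest aged control library 1930. At 2 months *Abca1* in *Acsl6-/-* mice was 87.8% of control (log2 fold change -0.19, adjusted p = 0.185), and at 18 months it was 101.4% (0.02, adjusted p = 0.955). The difference between the age effects of the genotypes was 0.21 (95% interval 0.04 to 0.38, adjusted p = 0.401).

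ABCG1, which moves cholesterol onto particles that already hold lipid, is encoded by *Abcg1* (ENSMUSG00000024030), at chromosome 17, 31057675 to 31117988, on the plus strand of GRCm38. It had 2000, 1863, 2059 and 2229 normalized counts in young *Acsl6-/-* libraries, and 2561, 2335, 2459 and 2494 in young control libraries. Every young *Acsl6-/-* library was below every young control library. At 2 months *Abcg1* fell by 0.28 on the log2 scale in *Acsl6-/-* mice (SE 0.053, adjusted p = 0.0398), to 82.8% of control. This call sat near the threshold. It was lost without the 5 libraries high in *Ttr* (-0.24, adjusted p = 0.241), with only the young groups in the fit (adjusted p = 0.0594), and when any 1 of 7 libraries was left out. These were young *Acsl6-/-* 2 and 3, young control 1, 3 and 4, and aged *Acsl6-/-* 1 and 4, with adjusted p of 0.0529 to 0.124. The aged libraries held 2118, 1952, 2212 and 2121 in *Acsl6-/-* mice, and 2302, 2251, 2115 and 2077 in control mice, which overlapped (log2 fold change -0.06, adjusted p = 0.814). With age *Abcg1* fell by 0.17 in control mice (SE 0.053, adjusted p = 0.0194), with no overlap, and its fold change in *Acsl6-/-* mice was 0.05 (adjusted p = 0.580). Without the libraries high in *Ttr* the age difference in control mice was -0.07 (adjusted p = 0.562), and it was not called without aged control 3, aged control 4 or young control 1. The genotype by age difference of *Abcg1* was 0.22 (95% interval 0.06 to 0.38, adjusted p = 0.338).

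ABCG4, a related transporter found mainly in neurons and glia, is encoded by *Abcg4* (ENSMUSG00000032131), at chromosome 9, 44273188 to 44288615, on the minus strand of GRCm38. It ranged from 1487 to 1591 in aged *Acsl6-/-*, 1402 to 1591 in aged control, 1483 to 1542 in young *Acsl6-/-* and 1532 to 1653 in young control libraries. The groups overlapped in all 4 comparisons, and fold changes lay between -0.09 and 0.03, with adjusted p from 0.106 to 0.889. Per kilobase the ratio of *Abcg1* to *Abca1* was 1.46 ± 0.117 in aged *Acsl6-/-*, 1.54 ± 0.142 in aged control, 1.79 ± 0.0750 in young *Acsl6-/-* and 1.91 ± 0.175 in young control libraries (SD, n = 4 each), with no overlap between the ages in either genotype.

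LXRα, the liver X receptor of liver and macrophages, is encoded by *Nr1h3* (ENSMUSG00000002108), at chromosome 2, 91184061 to 91202834, on the minus strand of GRCm38. It had 288, 299, 309 and 302 normalized counts in aged *Acsl6-/-* libraries, and 221, 203, 210 and 228 in young *Acsl6-/-* libraries. Aged control libraries had 302, 304, 313 and 291, and young control libraries had 239, 235, 200 and 229. All aged libraries were above all young ones in both genotypes. *Nr1h3* rose with age in *Acsl6-/-* mice by 0.47 on the log2 scale (SE 0.069, adjusted p = 9.16e-05) and in control mice by 0.43 (SE 0.069, adjusted p = 0.000161). The age effects of the genotypes differed by 0.05 (95% interval -0.16 to 0.25). By genotype the fold change was -0.02 at 18 months (95% interval -0.16 to 0.13) and -0.06 at 2 months (-0.21 to 0.08). Of its exon bases, 1.35% are shared with the gene model *Gm13783* on the same strand.

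LXRβ, the more widespread of the receptors and the prevailing one in the brain, is encoded by *Nr1h2* (ENSMUSG00000060601), at chromosome 7, 44549616 to 44553951, on the minus strand of GRCm38. It ranged from 1300 to 1468 in aged *Acsl6-/-*, 1342 to 1409 in aged control, 1251 to 1324 in young *Acsl6-/-* and 1264 to 1369 in young control libraries. It rose with age in *Acsl6-/-* mice by 0.12 (SE 0.042, adjusted p = 0.0494), although the ages overlapped, and the call was lost in 18 of 27 alternative settings, among them without the libraries high in *Ttr* (0.09, adjusted p = 0.167). With single libraries left out it was kept for 3 of 16 (young *Acsl6-/-* 1, aged *Acsl6-/-* 2 and young control 4) and lost for the other 13, with adjusted p of 0.0533 to 0.156. In control mice its fold change was 0.08 (adjusted p = 0.145). The share of *Nr1h3* in the sum of both receptors per kilobase was 22.5% ± 1.19 in aged *Acsl6-/-* and 22.7% ± 0.728 in aged control libraries, and 18.4% ± 0.760 in young *Acsl6-/-* and 18.8% ± 1.42 in young control libraries (SD, n = 4 each). The ranges of the aged and the young libraries did not meet in either genotype.

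APOE, the main apolipoprotein of the brain, is encoded by *Apoe* (ENSMUSG00000002985), at chromosome 7, 19696109 to 19699188, on the minus strand of GRCm38. It had 25837, 21587, 26473 and 23140 normalized counts in aged *Acsl6-/-* libraries, and 18980, 21246, 18944 and 19221 in young *Acsl6-/-* libraries. Aged control libraries had 24273, 22200, 21921 and 25166, and young control libraries had 18584, 17548, 17991 and 19996. All aged libraries stood above the young ones of their genotype, by a narrow gap in *Acsl6-/-* mice, where the highest young library had 21246 and the lowest aged library 21587. *Apoe* rose with age by 0.30 in *Acsl6-/-* mice (SE 0.064, adjusted p = 0.00207) and by 0.34 in control mice (SE 0.064, adjusted p = 0.000674). The genotype difference was 0.05 at 18 months (95% interval -0.08 to 0.18) and 0.08 at 2 months (-0.05 to 0.22), and neither passed. The age calls of *Apoe* and of *Nr1h3* in both genotypes, of *Clu* in control mice and of *Abca1* in *Acsl6-/-* mice were kept in all 27 alternative settings run.

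Microglia markers moved with these age differences. All 12 were called higher with age in both genotypes, where 23.2% of all genes were called in *Acsl6-/-* and 31.3% in control mice. Their summed level was 5642 to 7463 normalized counts in aged *Acsl6-/-* and 4711 to 5324 in aged control libraries, and 2591 to 3089 in young *Acsl6-/-* and 2116 to 2617 in young control libraries. None of the 12 was at 0 in any library. By genotype at 18 months these sums did not overlap (median log2 fold change of the 12 markers 0.30). Of the 12, limma called 0, with 7 at an unadjusted p under 0.05, where 1560 of all 17042 genes were at that level. DESeq2 called 4 higher and edgeR 3, where they called 164 and 53 of 17074 genes. At 2 months 0 of the 12 were called by limma, DESeq2 or edgeR (median 0.25). *Nr1h3*, *Apoe* and *Abca1* were not called by genotype at either age. Granule cell markers fell with age, 10 of 10 in *Acsl6-/-* and 9 of 10 in control mice. Summed markers of astrocytes and Bergmann glia overlapped between the groups of every comparison, at 135907 to 145351 in aged *Acsl6-/-*, 138311 to 142170 in aged control, 142736 to 145224 in young *Acsl6-/-* and 135278 to 144861 in young control libraries. Single markers of these cells passed the test with age in both directions, 4 of 14 higher and 2 lower in *Acsl6-/-* mice, and 6 higher and 2 lower in control mice. *Gfap*, an intermediate filament of astrocytes, was higher by 1.08 on the log2 scale in *Acsl6-/-* and by 1.51 in control mice, and the water channel gene *Aqp4* by 0.67 and 0.95. *Fabp7*, which encodes a fatty acid binding protein, was lower in both (-0.58 in *Acsl6-/-* and -0.46 in control mice), and so was the glutamate transporter gene *Slc1a3* (-0.16 and -0.14). By genotype 1 of the 14 was called at 2 months, *Gfap*, higher by 0.50 (adjusted p = 0.0475), and 0 at 18 months. At 2 months DESeq2 called 2 of the 14 higher and edgeR 0, where they called 227 and 32 of 17074 genes. The part of cell makeup in the higher *Nr1h3*, *Apoe* and *Abca1* was not tested.

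Clusterin, an abundant secreted chaperone of astrocytes, ependyma and choroid plexus that rides on brain lipoprotein particles, is encoded by *Clu* (ENSMUSG00000022037), at chromosome 14, 65968483 to 65981547, on the plus strand of GRCm38. It had 6276, 6144, 6723 and 6357 normalized counts in aged *Acsl6-/-* libraries, and 9065, 8647, 9458 and 9421 in aged control libraries. The highest aged *Acsl6-/-* library, at 6723, was below the lowest aged control library, at 8647. At 18 months *Clu* fell by 0.52 on the log2 scale in *Acsl6-/-* mice (SE 0.090, 95% interval -0.71 to -0.33, adjusted p = 0.0222), to 69.7% of control. The call kept its size but not always its side of the threshold: it was lost without the 5 libraries high in *Ttr* (-0.47, adjusted p = 0.164) and when aged *Acsl6-/-* 2 or 4 or aged control 1 or 4 was left out (adjusted p of 0.0517 to 0.0596). It was kept without aged control 3 (adjusted p = 0.0474).

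At 2 months *Clu* had 7687, 5811, 7554 and 5980 normalized counts in young *Acsl6-/-* libraries, and 5505, 5190, 7013 and 5343 in young control libraries. The groups overlapped, and the young *Acsl6-/-* libraries fell into a higher and a lower pair. The fold change was 0.23 (95% interval 0.04 to 0.42, adjusted p = 0.310), opposite in sign to that at 18 months. With age *Clu* rose by 0.68 in control mice (SE 0.090, adjusted p = 2.71e-05), and its fold change in *Acsl6-/-* mice was -0.07 (95% interval -0.26 to 0.12, adjusted p = 0.605). The difference between the 2 age effects was -0.75 (SE 0.128, 95% interval -1.02 to -0.48, adjusted p = 0.0586), just short of the threshold. Of all genes 3 were called for this difference, 0.0176%, and of the 10 genes 0, with 3 at an unadjusted p under 0.05 (*Clu*, *Abcg1* and *Abca1*). At that level were 1707 of all 17042 genes. The difference was called in 8 of 26 alternative settings. Of the other tools, DESeq2 called *Clu* (adjusted p = 2.26e-05) and edgeR called 0 of the 10 (adjusted p = 0.0581 for *Clu*).

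**Figure D3:**
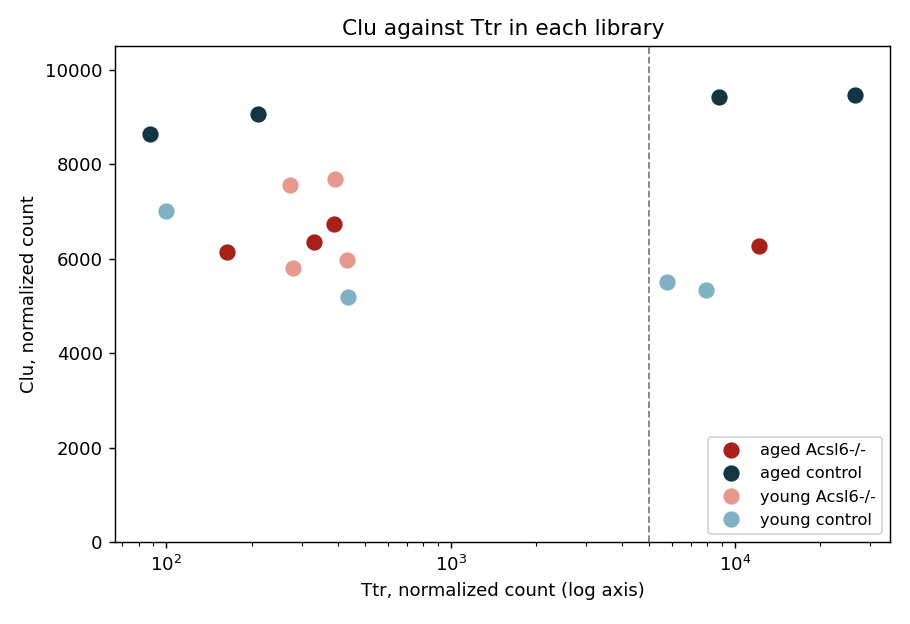
*Clu* (y axis, normalized counts) against the choroid plexus marker *Ttr* (x axis, normalized counts, log axis) in the 16 libraries, colored by group, with a dashed line at 5000. On both sides of the line the aged control libraries lie highest, at 8647 and 9065 on the left.

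The aged groups were apart at low and at high *Ttr*. Among libraries low in *Ttr*, *Clu* was 6144 to 6723 in 3 aged *Acsl6-/-* libraries and 8647 to 9065 in 2 aged control libraries, and among those high in *Ttr* it was 6276 in 1 aged *Acsl6-/-* library and 9458 and 9421 in 2 aged control libraries. Across the 16 libraries the correlation of *Clu* with *Ttr* was 0.04 on the log scale, and within groups it was -0.12. The 12 choroid plexus markers summed to 1022 to 15059 normalized counts in aged *Acsl6-/-* and 749 to 31226 in aged control libraries, and to 974.6 to 1218 in young *Acsl6-/-* and 713 to 10028 in young control libraries, with 1 marker at 0 in at least 1 library of each control group. Their median log2 fold change by genotype was -0.76 at 18 months and -1.12 at 2 months. At both ages 0 of the 12 were called by limma, DESeq2 or edgeR, and 0 were at an unadjusted p under 0.05. The median log2 fold change of ependymal markers was -0.62 for genotype at 18 months, with 0 of 8 called by limma, DESeq2 or edgeR and 2 at an unadjusted p under 0.05 (1560 of all 17042 genes). The 8 summed to 692, 218, 236 and 454 in aged *Acsl6-/-*, and to 462, 432, 628 and 559 in aged control libraries. They summed to 373, 371, 262 and 327 in young *Acsl6-/-*, and to 278, 266, 234 and 379 in young control libraries. With age in *Acsl6-/-* mice 0 of the 8 were called by limma, DESeq2 or edgeR (median 0.06), where limma called 23.2% of all genes. At an unadjusted p under 0.05 were 0 of the 8 and 5990 of all 17042 genes. In control mice 3 of the 8 were called higher (median 0.83), where 31.3% of all genes were called in either direction. Without the libraries high in *Ttr* 1 of the 8 was called higher, where 2789 of 16900 genes were called. The median genotype by age difference of the 8 was -0.80, with 0 called by limma, DESeq2 or edgeR and 2 at an unadjusted p under 0.05 (1707 of all 17042 genes). Markers of fibroblasts and meninges had signs like these. With age in *Acsl6-/-* mice 0 of 10 were called by limma and by edgeR, 1 by DESeq2 and 2 were at an unadjusted p under 0.05 (median 0.24). In control mice 5 of 10 were called higher (median 0.60), or 2 without the libraries high in *Ttr*, beside the same shares of all genes. Their median genotype by age difference was -0.33, with 0 called by limma, DESeq2 or edgeR and 2 at an unadjusted p under 0.05. These 10 summed to 2146 to 3488 normalized counts in aged *Acsl6-/-* and 2575 to 4330 in aged control libraries, and to 2490 to 3362 in young *Acsl6-/-* and 2443 to 2756 in young control libraries, with none at 0. For 12 oligodendrocyte markers this median was -0.34, with 6 at an unadjusted p under 0.05. For 14 astrocyte and Bergmann glia markers it was -0.10, with 5 at that level. None of these was called by limma, DESeq2 or edgeR. It was -0.02 for Purkinje cell, 0.04 for microglia, 0.04 for endothelial and mural, 0.08 for granule cell and 0.24 for choroid plexus markers. The part of RNA from any of these cell types in the *Clu* difference was not tested.

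Apolipoprotein D, a lipocalin of oligodendrocytes, astrocytes and perivascular fibroblasts that binds arachidonic acid, is encoded by *Apod* (ENSMUSG00000022548), at chromosome 16, 31296192 to 31314808, on the minus strand of GRCm38. It ranged from 4312 to 5125 in aged *Acsl6-/-*, 4140 to 5496 in aged control, 4411 to 5734 in young *Acsl6-/-* and 4360 to 4969 in young control libraries. The groups overlapped in all 4 comparisons. The fold change with age was -0.10 in *Acsl6-/-* mice (95% interval -0.28 to 0.07) and 0.11 in control mice (-0.07 to 0.28). Summed oligodendrocyte markers ran from 78242 to 98994 in aged *Acsl6-/-* and 76548 to 116599 in aged control libraries, and from 107921 to 137193 in young *Acsl6-/-* and 97185 to 111779 in young control libraries. Of these 12 markers, 0 were called higher and 9 lower with age in *Acsl6-/-* mice (median -0.51), where 23.2% of all genes were called. In control mice 1 was higher and 3 lower (median -0.19), where 31.3% of all genes were called. By genotype 0 of 12 were called at either age by limma. At 2 months 8 were at an unadjusted p under 0.05 (median 0.27), and at 18 months 0 (median -0.09). Of all 17042 genes 2068 were at that level at 2 months and 1560 at 18 months. The part of oligodendrocyte RNA in the *Apod* values was not tested. Per kilobase, *Clu* stood to *Apoe* as 0.164 ± 0.0118 in aged *Acsl6-/-* and 0.244 ± 0.0169 in aged control libraries, with no overlap, and as 0.216 ± 0.0405 in young *Acsl6-/-* and 0.194 ± 0.0332 in young control libraries (SD, n = 4 each).

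CYP46A1, the neuronal cholesterol 24-hydroxylase, is encoded by *Cyp46a1* (ENSMUSG00000021259), at chromosome 12, 108334381 to 108362234, on the plus strand of GRCm38. It had 738, 695, 723 and 651 normalized counts in aged *Acsl6-/-* libraries, and 819, 835, 797 and 752 in young *Acsl6-/-* libraries, with no overlap. It fell by 0.19 with age in *Acsl6-/-* mice (SE 0.066, adjusted p = 0.0432), a call that was lost in 11 of 27 alternative settings, with adjusted p of up to 0.132. These were quantile normalization, the replicate block, and leaving out young *Acsl6-/-* 1, 2 or 3, aged *Acsl6-/-* 2, 3 or 4, aged control 1 or 4, or young control 2. Aged control libraries had 737, 799, 673 and 716, and young control libraries had 714, 754, 739 and 874, which overlapped (-0.07, adjusted p = 0.427). The age effects of the genotypes differed by -0.12 (95% interval -0.31 to 0.08, adjusted p = 0.702), so the call in 1 genotype does not show that the genotypes differ.

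LCAT, which esterifies cholesterol on lipoproteins with APOE as its activator in the brain, is encoded by *Lcat* (ENSMUSG00000035237), at chromosome 8, 105939551 to 105943382, on the minus strand of GRCm38. It had 1121, 879, 984 and 917 normalized counts in aged *Acsl6-/-* libraries, and 948, 862, 826 and 864 in aged control libraries. It had 890, 1014, 848 and 874 in young *Acsl6-/-* libraries, and 823, 787, 746 and 774 in young control libraries. The young *Acsl6-/-* libraries were all above the young controls, and the aged groups overlapped. The genotype difference was 0.15 at 18 months (95% interval 0.00 to 0.30, adjusted p = 0.531) and 0.21 at 2 months (0.06 to 0.36, adjusted p = 0.234), and neither passed. The age difference was 0.10 in *Acsl6-/-* mice (adjusted p = 0.318) and 0.16 in control mice (adjusted p = 0.0916), where the ages did not overlap.

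Groups did not overlap for 1 of the 10 genes at 18 months (5.17% of all genes) and for 2 at 2 months (6.65%). With age they did not overlap for 4 in *Acsl6-/-* mice (23.7%) and for 6 in control mice (30.3%). The genotype shares rest on *Clu* at 18 months, and on *Abcg1* and *Lcat* at 2 months.

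Other genes of the pathway were counted from 5 lists of 68 genes, of which 52 were in the table and tested. With age 12 of the 52 were higher and 6 lower in *Acsl6-/-* mice, and 15 were higher and 7 lower in control mice, with medians of 0.07 and 0.10 on the log2 scale. Without the libraries high in *Ttr* 8 were higher and 5 lower in *Acsl6-/-* mice, and 11 were higher and 5 lower in control mice. Under that setting 3653 of 16900 genes were called with age in *Acsl6-/-* and 2789 in control mice, against 3957 and 5333 of 17042 with all libraries. For the genotype by age difference 0 of 52 were called by limma and by edgeR, and 2 as lower by DESeq2 (88 of all 17074 genes in either direction). At an unadjusted p under 0.05 in limma were 7 of the 52 and 1707 of all 17042 genes.

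Among 17 other lipid transporters and sterol movers, 4 were higher and 2 lower with age in *Acsl6-/-* mice, and 5 were higher and 4 lower in control mice. *Abca8a*, an ABCA transporter, showed the largest age fold change of the 52 genes in control mice. It averaged 342 ± 49.3 normalized counts in aged and 97.0 ± 11.9 in young *Acsl6-/-* libraries, and 336 ± 52.9 in aged and 78.8 ± 9.34 in young control libraries (log2 fold changes 1.80 and 2.07). *Abca9* rose as well, by 0.57 in *Acsl6-/-* and 0.79 in control mice. *Abca2*, a transporter abundant in oligodendrocytes, fell by 0.28 in *Acsl6-/-* and by 0.35 in control mice, and *Abca8b* fell by 0.44 in *Acsl6-/-* and by 0.33 in control mice. *Abca7*, a phospholipid transporter, rose by 0.25 in *Acsl6-/-* mice (adjusted p = 0.00279), and its fold change in control mice was 0.14 (adjusted p = 0.0628). *Scarb1*, the receptor for high-density lipoprotein, rose by 0.52 in control mice (adjusted p = 0.0013), with 0.21 in *Acsl6-/-* mice (adjusted p = 0.173). *Gramd1b*, which moves sterol from the plasma membrane to the endoplasmic reticulum, fell by 0.15 in control mice, with -0.04 in *Acsl6-/-* mice (adjusted p = 0.560).

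**Figure D4:**
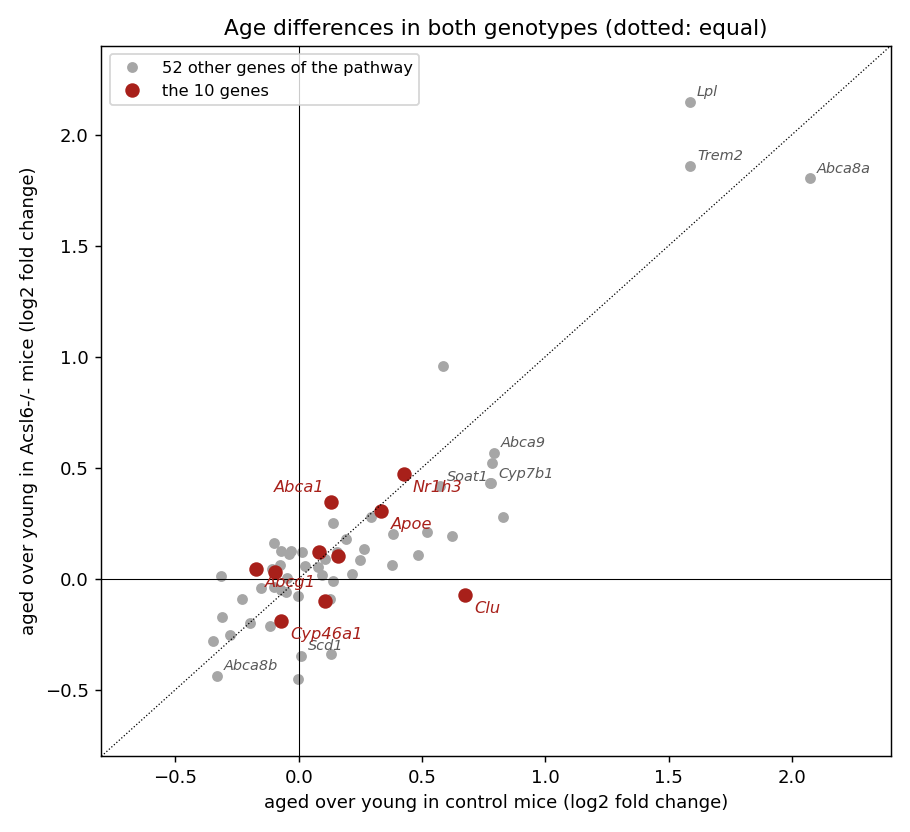
Log2 fold changes, aged over young, in control mice (x axis) and in *Acsl6-/-* mice (y axis) for the 10 genes (red) and 52 other genes of the pathway (gray), with a dotted line where both are equal. *Clu*, at 0.68 and -0.07, lies far to the right of the line, while *Nr1h3* and *Apoe* lie near it.

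Of 4 other apolipoproteins and remodeling genes in the table, 2 were higher with age in each genotype. *Lpl*, lipoprotein lipase, averaged 96.6 ± 20.5 normalized counts in aged and 21.2 ± 6.16 in young *Acsl6-/-* libraries, and 59.8 ± 12.8 in aged and 19.1 ± 3.64 in young control libraries (log2 fold changes 2.15 and 1.59). *Pltp*, which transfers phospholipid between lipoproteins, rose by 0.20 in *Acsl6-/-* and 0.38 in control mice. Of 11 lipoprotein receptors, 3 were higher with age in each genotype. *Trem2*, a microglial receptor for lipids and apolipoproteins that is also among the 12 microglia markers, rose by 1.86 in *Acsl6-/-* and 1.59 in control mice. *Sort1*, encoding sortilin, an APOE receptor, rose by 0.12 in *Acsl6-/-* and 0.16 in control mice. *Lrp1*, a large APOE receptor, rose by 0.12 in *Acsl6-/-* mice, with 0.01 in control mice (adjusted p = 0.824). *Apobr* rose by 0.83 in control mice from a low level, at 17.0 ± 2.5 in aged and 9.43 ± 3.55 in young libraries. In *Acsl6-/-* mice its fold change was 0.28 (adjusted p = 0.508).

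Of 14 other targets and partners of the liver X receptors, 1 was higher and 4 lower with age in *Acsl6-/-* mice, and 2 were higher and 3 lower in control mice. *Rxra*, encoding a retinoid X receptor, rose by 0.28 in *Acsl6-/-* and 0.29 in control mice, while its relative *Rxrb* fell by 0.20 in both. *Lpcat3*, a target gene that remodels phospholipids, fell by 0.17 in *Acsl6-/-* and by 0.31 in control mice. *Scd1*, a desaturase and target gene, fell by 0.35 in *Acsl6-/-* mice (adjusted p = 0.000212), with 0.01 in control mice (adjusted p = 0.912). *Scd2* rose by 0.13 in control mice, with -0.09 in *Acsl6-/-* mice (adjusted p = 0.111). *Nrip1*, a coregulator of nuclear receptors, fell by 0.23 in control mice, with -0.09 in *Acsl6-/-* mice (adjusted p = 0.337). The genes of this list therefore did not move one way, with medians of -0.03 in *Acsl6-/-* and -0.02 in control mice. Of 6 enzymes of oxysterols and sterol esters, 2 were higher in *Acsl6-/-* and 3 in control mice with age. *Soat1*, which esterifies cholesterol for storage, averaged 679 ± 58.3 in aged and 508 ± 32.2 in young *Acsl6-/-* libraries, and 695 ± 8.40 in aged and 469 ± 36.1 in young control libraries. *Cyp7b1*, which hydroxylates oxysterols, rose by 0.43 in *Acsl6-/-* and 0.78 in control mice. *Cyp27a1*, which makes 27-hydroxycholesterol, rose by 0.49 in control mice, with 0.11 in *Acsl6-/-* mice (adjusted p = 0.371).

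Patterns over the 16 libraries are given as Pearson's r of log2 values, as a description, since the libraries share group differences. Of the 10 genes, *Nr1h2* and *Apoe* (0.79), *Abca1* and *Nr1h3* (0.79) and *Nr1h3* and *Apoe* (0.78) were the most alike. Within groups these were 0.58, 0.18 and -0.19, so for *Nr1h3* the likeness was between groups and not within them. *Apoe* and *Lcat* had 0.71 over all libraries and 0.69 within groups. Among all named genes with a mean of at least 100, *Abca1* was most like *Cntrob* (0.96, and 0.85 within groups) and *Abcg1* was most like *D17Wsu92e* (0.92). *Nr1h3* was most like *Ptk2b* (0.97), and *Nr1h2* most like *Man2b2* and *Ctsz* (both 0.89). *Apoe* was most like *Cebpa* (0.94), *Laptm5* (0.93) and *Il33* (0.93). *Clu* was most like *Sparcl1* (0.83), *Tmem229a* (0.81) and *Gsta4* (0.79), with 0.47, 0.49 and 0.21 within groups. *Apod* was most like *Ndrg1* (0.83), *Cyp46a1* like *Ecd* (0.91), *Lcat* like *P4hb* (0.89) and *Abcg4* like *Prdm4* (0.85).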

How the data were processed

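RNA had been isolated from cerebellum, libraries prepared by poly(A) selection and sequenced on an Illumina HiSeq. Per the submitters' processing notes and the study's methods, reads were trimmed with Trimmomatic 0.36, aligned to GRCm38 with STAR 2.5.2b, and unique reads in exons counted with featureCounts. The deposited signal is a normalized count for which the authors scaled the gene counts of a library by its own size factor. The strand used and the filter that left a lowest mean of 9.31 are not given in the sources used here, so reads of genes that overlap on opposite strands cannot be told apart. Symbols were found for 17020 of 17074 identifiers.

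Within a tolerance of 0.001, 100% of the values of each of the 16 libraries came out as whole reads once divided by the value of 1 read. In aged control 3 and 4 that value is the lowest value divided by 3 and by 2. The test was limma 3.58.1 in R 4.3.3 on log2(normalized count + 1), fitted to the 4 groups at once with a mean-variance trend, two-sided, adjusted by Benjamini-Hochberg over 17042 genes. It was tested on simulated data. Alternatives were other pseudocounts, filters, scalings, weights, a replicate block, only the groups compared, tests of the recovered reads by DESeq2 1.42.0 and by edgeR 4.0.16, leaving out the libraries high in *Ttr*, and leaving out each library in turn. All 10 genes are named, and of each pathway list up to 3 genes per direction and comparison with the smallest p among those called. Genotype results of the pathway lists are not reported here. Unnamed gene models were left out, except *Gm42418* and *Gm13783*, chosen after their values were seen. The genes, lists and alternatives were chosen with earlier results of these data known. Gene lengths and places are from Gencode vM21.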

Additional observations from a re-analysis of the deposited data

Results flagged for a closer look

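In groups of 4 libraries, 4 of 40 combinations of gene and group held a library that stood apart from the other 3, by a gap over the group's range above 0.829, where chance gives about 1 in 20. The highest young *Acsl6-/-* library had 1324 normalized counts of *Nr1h2* (gap ratio 0.967), and the highest young *Acsl6-/-* library for *Apoe* had 21246 (0.880). For *Apod* the highest aged *Acsl6-/-* library had 5125 (0.840), and the highest young control library had 4969 (0.975). Both of these *Apod* libraries are among the 5 high in *Ttr*. Young control 4, also among the 5, had the lowest *Apod* of its group, at 4360. The correlation of *Apod* with *Ttr* was 0.48 over the 16 libraries and 0.60 within groups. The part of choroid plexus RNA in these *Apod* values was not tested.

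The log2 fold change of *Clu* by genotype was -0.52 at 18 months and 0.23 at 2 months. The difference, -0.75 (18 minus 2 months), had an unadjusted p of 1.37e-05 in limma and did not pass the threshold over all genes (adjusted p = 0.0586), nor did it in 18 of 26 alternatives. At 18 months all 4 *Acsl6-/-* libraries were below all 4 control libraries, and at 2 months 3 of the 4 control libraries were below all 4 *Acsl6-/-* libraries.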

How the results depend on the processing

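Over the 50 fold changes of the 10 genes, 1268 of 1340 alternative values kept their direction and their side of the threshold. Another 47 lost a call, for 5 fold changes, 10 gained one, for 3, and 15 changed sign, for 7 fold changes that were near 0 and not called. With only the groups compared, genotype at 2 months called 0 of the 10, and that setting was not run for the genotype by age difference, which needs all groups. Without the libraries high in *Ttr*, 0 were called by genotype at 2 months and 0 at 18 months. For the genotype by age difference 1 gene, *Clu*, was called with quantile normalization, with array weights, with the replicate block and by DESeq2. *Abca1* by age in control mice was called under quantile normalization (adjusted p = 0.0358), and *Lcat* by age in control mice with only the groups compared (adjusted p = 0.0425). Leaving out 1 library gave 0 to 1 calls for genotype at 2 months, 0 to 1 for genotype at 18 months, 3 to 5 for age in *Acsl6-/-* mice and 0 to 1 for the genotype by age difference. Replicate numbers did not pair the samples: same-numbered libraries had correlations of -0.20 to 0.12. The fit with the replicate block called 3 of the 10 with age in *Acsl6-/-* mice, against 5 without it, and 3675 of 17042 genes, against 3957. Over all genes, the genotype calls numbered 164 in aged and 227 in young mice with DESeq2, against 41 and 36 with limma, and those of the genotype by age difference 88, against 3. With the libraries high in *Ttr* left out, the count for age in control mice was 2789, against 5333, with fewer samples in the fit.

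Sign changes were as follows. Without the libraries high in *Ttr*, *Abcg4* by genotype at 18 months was -0.052, *Nr1h2* by genotype at 18 months -0.049, *Cyp46a1* by age in control mice 0.040 and the genotype by age difference of *Nr1h2* -0.039. With TMM rescaling *Nr1h2* by genotype at 18 months was -0.000241. Leaving out 1 library gave -0.0050 to 0.057 for *Abca1*, -0.0014 to 0.059 for *Abcg4*, -0.027 to 0.032 for *Nr1h2* and -0.035 to 0.0020 for *Nr1h3* by genotype at 18 months, and -0.074 to 0.024 for the genotype by age difference of *Apoe*. The cause was not tested. Each group held 4 libraries, of at least 16953548 reads each.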
